A study of Mus musculus with 8 samples.

Results

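The genes described here are the muscle actin isoforms and the myosin-binding proteins C and H, followed in 8 Visium sections of embryonic mouse diaphragm. They were chosen by symbol: *Acta1*, *Actc1*, *Acta2*, *Actg2*, *Mybpc1*, *Mybpc2* and *Mybph*, of which 6 of the 7 were found among the 19465 genes counted, and *Actc1* is not analysed here. The sections fall into 5 groups. At E14.5 there were 3 control sections and 1 from a CaV1.1 KO, and at E18.5 there were 2 control sections, 1 CaV1.1 KO section and 1 section of a β-cat cKO. CaV1.1 KO embryos (CaV1.1 -/-, labelled dysgenic) lack the voltage-gated calcium channel of skeletal muscle in every cell of the body. β-cat cKO embryos (bCat cKO) carried floxed β-catenin alleles and a Cre driven by the human skeletal actin promoter (HSA), that of the human counterpart of *Acta1*, so that recombination was aimed at muscle fibers, where that promoter works. The controls had at least 1 expressing allele of CaV1.1 and of β-catenin. Because the crosses mixed both lines, a control or CaV1.1 KO embryo may have carried the Cre or a floxed allele. A control or β-cat cKO embryo may likewise have been heterozygous for the CaV1.1 knockout. The labels do not give these alleles. All animals were embryos, and each mutant group is a single section, so its fold changes have no replicate check and rest on the spread of the controls. The labels do not tie sections to litters. For stage and genotype, p-values measure only the spread between these sections. Spot classes were compared with a term for each section, which removes that spread. Their p-values measure only how alike the class differences were among the few control sections, with information on spread shared over genes.

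Actin is the protein of the thin filament. Striated muscle uses the skeletal isoform encoded by *Acta1* and the cardiac isoform encoded by *Actc1*, vascular smooth muscle uses *Acta2*, and visceral smooth muscle uses *Actg2*. Smooth muscle α-actin is also known to appear for a time in young skeletal muscle fibers. Myosin-binding protein C sits on the thick filament and reaches toward actin: *Mybpc1* encodes the slow isoform, *Mybpc2* the fast isoform, and *Mybph* the related and shorter myosin-binding protein H.

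On mouse assembly GRCm38 (mm10; GENCODE vM21) the genes lie on separate chromosomes: *Acta1* (ENSMUSG00000031972) at chr8:123891769-123894751, *Acta2* (ENSMUSG00000035783) at chr19:34241090-34255590, *Actg2* (ENSMUSG00000059430) at chr6:83512905-83536265, *Mybpc1* (ENSMUSG00000020061) at chr10:88518279-88605152 and *Mybpc2* (ENSMUSG00000038670) at chr7:44501699-44524656, all on the minus strand. *Mybph* (ENSMUSG00000042451) is on the plus strand at chr1:134193448-134201232. The coding sequences of *Acta1* and *Acta2* are identical at 85.4% of 1134 bases, and *Acta1* and *Actc1* at 86.2%. Counts came from short probes, and whether an actin probe also binds a paralog was not tested, so the split of UMIs (distinct molecules counted) among actins is uncertain to that extent, and levels are not compared between genes.

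The 250 bases before the RefSeq start (GRCm38.p6) are shown for the 3 members that rose most from E14.5 to E18.5, *Acta1* (chr8:123894776-123895025, minus strand), *Mybpc1* (chr10:88605153-88605402, minus strand) and *Mybpc2* (chr7:44524670-44524919, minus strand), and for *Mybph* (chr1:134193198-134193447, plus strand), which fell. Sequences are written 5′ to 3′ in the direction of the gene. Capitals mark CArG boxes (the site of serum response factor), E-boxes (CANNTG, the site of MyoD-family factors) and MCAT elements (CATTCC, the site of TEAD factors), searched on both strands.
*Acta1*: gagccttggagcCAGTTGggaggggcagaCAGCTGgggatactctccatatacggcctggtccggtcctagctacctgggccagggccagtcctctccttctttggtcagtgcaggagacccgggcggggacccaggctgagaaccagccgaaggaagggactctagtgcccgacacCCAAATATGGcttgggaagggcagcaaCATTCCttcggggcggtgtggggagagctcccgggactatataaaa
*Mybpc1*: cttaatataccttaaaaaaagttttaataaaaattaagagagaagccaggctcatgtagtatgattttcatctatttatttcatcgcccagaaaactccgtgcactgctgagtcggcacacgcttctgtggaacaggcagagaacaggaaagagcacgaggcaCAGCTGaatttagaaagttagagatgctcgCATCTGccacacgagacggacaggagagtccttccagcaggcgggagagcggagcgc
*Mybpc2*: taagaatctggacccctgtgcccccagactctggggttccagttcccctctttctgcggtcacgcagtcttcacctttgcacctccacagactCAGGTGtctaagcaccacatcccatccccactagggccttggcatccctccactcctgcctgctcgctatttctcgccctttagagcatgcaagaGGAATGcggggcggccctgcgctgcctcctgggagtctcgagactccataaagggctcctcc
*Mybph*: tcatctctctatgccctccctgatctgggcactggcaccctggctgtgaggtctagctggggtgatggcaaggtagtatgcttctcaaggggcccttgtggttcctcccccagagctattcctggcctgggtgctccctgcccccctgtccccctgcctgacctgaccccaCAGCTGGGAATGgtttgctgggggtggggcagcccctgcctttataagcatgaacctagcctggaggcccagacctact

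The *Acta1* window held a CArG box 73 to 64 bases before the start, 2 E-boxes and an MCAT element 46 to 41 bases before it. *Mybpc1* had 2 E-boxes, at 87 to 82 and 57 to 52 bases, *Mybpc2* had an E-box at 157 to 152 and an MCAT element at 62 to 57, and in *Mybph* an E-box at 79 to 74 directly adjoined an MCAT element at 73 to 68 without overlap. Of all 32851 promoter windows of this length, 1.47% held a CArG box, 66.2% an E-box and 12.6% an MCAT element, so that the CArG box is the rarest of these matches. MEF2 elements, present in 2.92% of windows, were not found in these 4. A match is a string of letters and no evidence of binding. A TATA box (TATAAA, not in capitals) lay 7 to 2 bases before the RefSeq start of *Acta1* and 39 to 34 before that of *Mybph*. GENCODE starts *Acta1* and *Mybpc2* farther downstream, at 123894751 and 44524656, so distances from those starts are longer. The window of *Acta2* lies mostly inside the gene as GENCODE annotates it and is not shown.

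Spots under tissue with at least 1000 UMIs were kept, between 683 and 3460 in a section, with 14179161 to 82859104 UMIs in a section and a median of 15434 to 45284 UMIs per spot. Muscle spots were those above Otsu's threshold of a mean score of *Ttn*, *Neb*, *Des*, *Ryr1*, *Actn2*, *Mylpf*, *Tnnt3* and *Myl1*, none of them a member, which gave 490 to 582 muscle spots at E14.5, 2204 and 3091 in E18.5 controls, 810 in the CaV1.1 KO and 1570 in the β-cat cKO at E18.5. These 8 genes summed to 17194 to 21629 CPM (the usual rescaling of a gene's UMIs to the total UMIs of the spots summed) in muscle spots of E14.5 controls, 82959 and 83325 in E18.5 controls, 13526 and 50495 in the CaV1.1 KO at E14.5 and E18.5, and 68394 in the β-cat cKO. Levels are given as TMM-scaled CPM, in which the total is scaled by the trimmed mean of M-values, unless called CPM alone. In sums over spots, fewer fibers and less RNA per fiber cannot be told apart. *Cacna1s*, which encodes CaV1.1, was at 29.9 in the CaV1.1 KO at E18.5 against 84.3 and 87.1 in controls, and fell by 1.52 on the log2 scale (SE 0.15, adjusted p = 0.0013), but at E14.5 it was at 13.4 against 15 to 18.4 and did not pass the test (adjusted p = 0.33). *Ctnnb1*, which encodes β-catenin, was at 96.3 in the β-cat cKO and at 97.6 and 104.5 in controls (adjusted p = 0.77). Whether the probes of either gene lie in its altered part was not analysed here, and a probe outside that part would not show the loss.

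To ask how the members change during fiber maturation, control muscle was compared between stages. The skeletal thin filament actin and both C proteins rose, and myosin-binding protein H fell. *Acta1* was at 4994.8, 3696.7 and 3759.1 in the E14.5 sections and at 62050.2 and 66544.2 in the E18.5 sections. All E18.5 values lay far above all E14.5 values, a 15.5-fold rise (log2 3.95 ± 0.18 SE, adjusted p = 1.7e-06 by edgeR's quasi-likelihood test with Benjamini-Hochberg adjustment, as for every adjusted p here). *Mybpc1* rose from 390.1, 273.4 and 296.2 to 5965.2 and 5753.8, which is 18.3-fold (log2 4.20 ± 0.17, adjusted p = 1.3e-06).

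*Mybpc2* changed most. It was close to absent at E14.5, at 2.6, 2.7 and 2.8 from 62, 95 and 44 UMIs, and reached 1212.7 and 1463.8 at E18.5 from 66778 and 67670 UMIs. The rise was 500-fold (log2 8.97 ± 0.15, adjusted p = 1.6e-07). *Mybph* went the other way, from 995.2, 766.8 and 874.6 down to 475.3 and 412.7, and its groups did not overlap (log2 -0.99 ± 0.14, adjusted p = 0.00052). 

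The smooth muscle isoforms behaved differently from *Acta1*. *Acta2* was at 433.1, 302.1 and 338.3 at E14.5 and at 319.4 and 319.8 at E18.5, with overlapping groups and a log2 difference of -0.16 ± 0.15 (adjusted p = 0.38). *Actg2* was scarce in muscle spots at both stages, at 2.6, 3.8 and 6.7 and then at 9.4 and 7.2. Its rise (log2 0.97 ± 0.32, adjusted p = 0.029) was lost without E14.5 section 1 (adjusted p = 0.056), without E14.5 section 2 (0.083) or without E18.5 section 1 (0.11), and in muscle spots with only muscle neighbors (0.17). Thus 5 of 6 members were called by stage, 4 higher and 1 lower, in a comparison where 65.7% of 14829 genes were called.

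These directions and sizes hold for TMM-scaled levels. In CPM without TMM *Acta2* fell without overlap, from 496.3, 368.7 and 419.1 to 231.9 and 234.3. *Actg2* overlapped on that scale, at 3.0, 4.6 and 8.2 and then at 6.8 and 5.3. *Acta1* went from 5724.0, 4511.4 and 4657.2 CPM to 45058.6 and 48754.9. Scaled instead to the summed muscle score genes, which shifted the median of all genes by log2 -2.88 and the calls from 4934 higher and 4802 lower to 274 higher and 13773 lower, *Acta1*, *Mybpc1* and *Mybpc2* stayed higher and *Mybph* lower at E18.5, *Acta2* was lower by log2 -3.00 and *Actg2* turned to -1.95. E14.5 sections 1 and 2 and the CaV1.1 KO at E14.5 were counted with Space Ranger 2.0.0 and the other sections with 2.0.1. Within 2.0.1, E14.5 section 3 differed from the E18.5 sections in the same direction as the TMM-scaled group means for each of the 6 members. In CPM without TMM its *Actg2* was above both E18.5 sections.

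**Figure D1:**
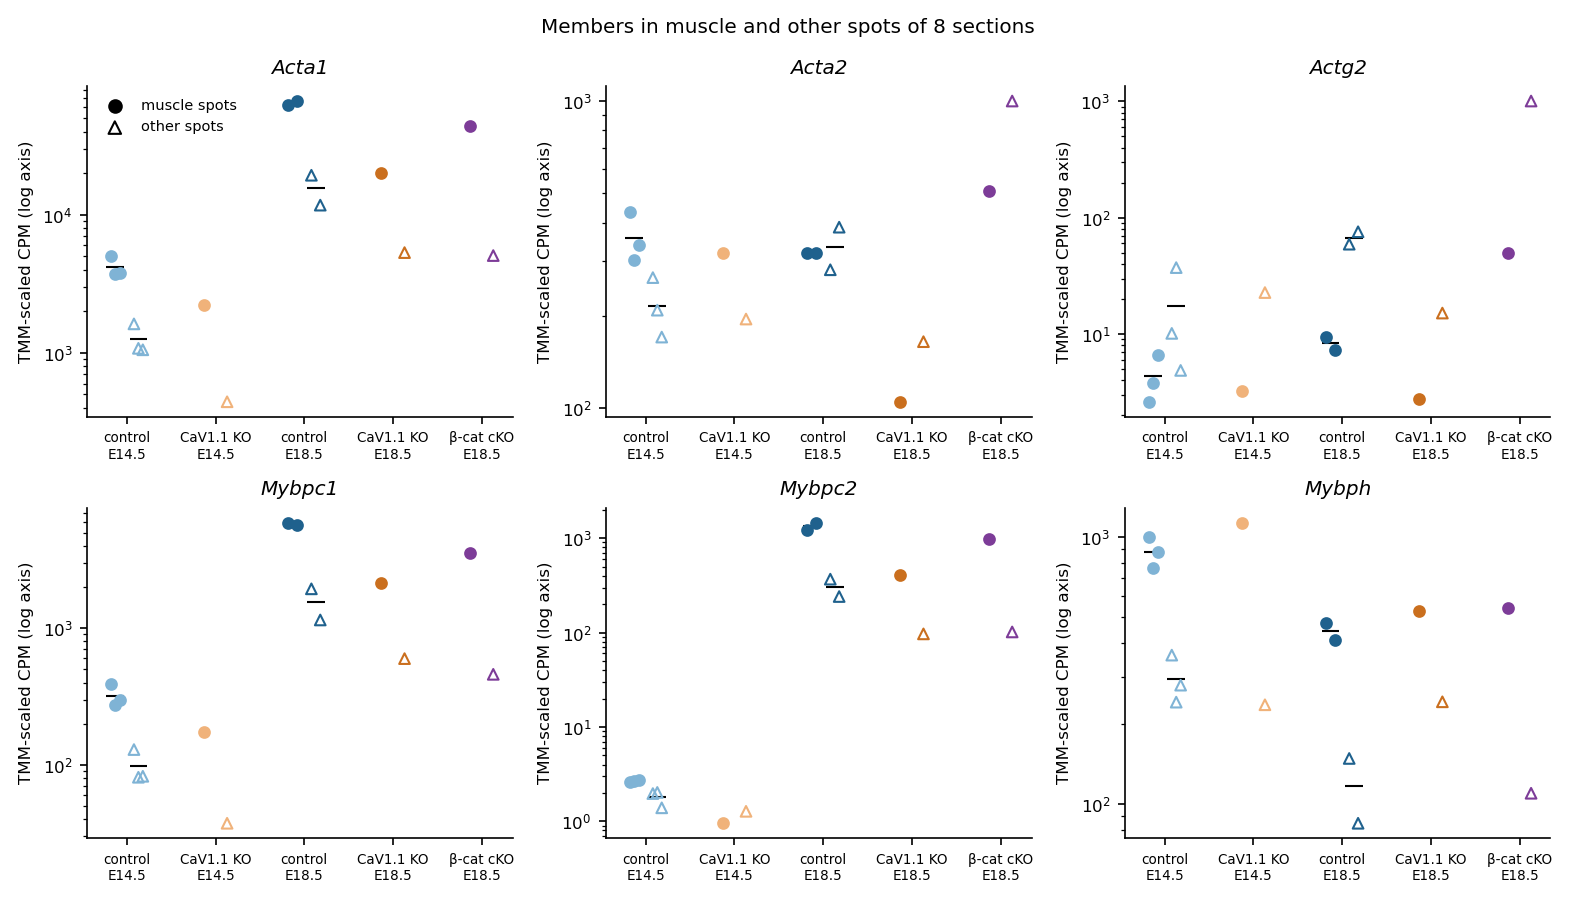
Level of each member (TMM-scaled CPM, log axis) in the 5 groups. Filled circles are muscle spots and open triangles other spots of a section, and bars are means of groups with more than 1 section. Muscle and other spots were scaled in separate fits, so circles and triangles are not on 1 scale. *Mybpc2* is at 2.6 to 2.8 in E14.5 control muscle and at 1212.7 and 1463.8 in E18.5 control muscle, and *Actg2* is highest in the other spots of the β-cat cKO at 1005.5.

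The proportion of fast to slow C protein followed. UMIs of *Mybpc2* per UMI of *Mybpc1* in muscle were 0.00671, 0.00972 and 0.00933 at E14.5 and 0.203 and 0.254 at E18.5, a log2 difference of 4.75. An exact two-sided permutation test of 10 arrangements gave p = 0.1, the smallest these 5 sections allow. The CaV1.1 KO stood at 0.00549 at E14.5 and 0.191 at E18.5, below each control of its stage, and the β-cat cKO at 0.275. Both genes use their own probes, so the ratio is comparable between sections but is not a ratio of molecules.

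The partners of these proteins are given for comparison, from lists of known thin filament, thick filament and regulatory genes. By stage 65.7% of all genes were called, 4934 higher and 4802 lower, and the counts below are to be read beside that share. Of 15 thin filament genes tested, 14 rose from E14.5 to E18.5 and none fell, with a median log2 change of 1.75 against -0.01 over all genes. They included *Tmod4* (log2 4.06 ± 0.15), a tropomodulin that caps the pointed end of actin, tropomyosin *Tpm1* (3.64 ± 0.15), *Lmod2* (3.54 ± 0.18), which nucleates and lengthens actin filaments, and *Nrap* (3.32 ± 0.19), which takes part in building myofibrils. Of 11 thick filament and M-band genes, 7 rose and 1 fell, led by the M-band proteins *Myom1* (2.70 ± 0.12) and *Myom2* (2.42 ± 0.14). Of 8 genes of the serum response factor and MRTF pathway, which drives actin transcription, 7 rose and 1 fell: *Srf* rose by 0.94 ± 0.11, its muscle co-activator *Abra* by 2.51 ± 0.16, and *Vgll3*, a TEAD cofactor, fell by 1.06 (SE 0.14). The non-muscle actin *Actb* fell by 0.50 on the log2 scale (SE 0.12).

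CaV1.1 is the voltage sensor that releases calcium for contraction, and the knockout was compared with controls of the same stage. At E14.5 the members were lower or close to control. *Mybpc2* was at 1.0 from 24 UMIs against 2.6 to 2.8, and this was the only member called (log2 -1.48 ± 0.25, adjusted p = 0.034), where 2.1% of all genes were called. The call was lost without E14.5 section 2 (adjusted p = 0.081), without section 3, which leaves sections of 1 Space Ranger version (-1.46, 0.11), and in muscle spots with only muscle neighbors (0.051). *Acta1* at 2225.9 and *Mybpc1* at 173.7 lay below all 3 controls, with log2 differences of -0.90 and -0.88 that did not pass the test (adjusted p = 0.10 for both). Without E14.5 section 1 both passed, at -0.74 and -0.71 (adjusted p = 0.012 and 0.027). *Mybph* at 1130.3 was above all controls (log2 0.36, adjusted p = 0.35), *Acta2* at 320.1 was within their range, and so was *Actg2* at 3.2.

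At E18.5 the CaV1.1 KO had less of the striated actin, of both C proteins and of *Acta2*, while *Mybph* was not lower. *Acta1* was at 19902.3 against 62050.2 and 66544.2, 3.23-fold lower (log2 -1.69 ± 0.25, adjusted p = 0.0040). *Mybpc1* was at 2158.5 (log2 -1.44 ± 0.24, adjusted p = 0.0058) and *Mybpc2* at 411.8 (log2 -1.70 ± 0.17, adjusted p = 0.0013). These 3 genes lay above the level of every E14.5 control. The knockout section had more muscle spots at the muscle edge, 309 of 810 against 324 of 3091 and 203 of 2204 in controls. In CPM without TMM *Acta1* was at 21050 against 45059 and 48755 in all muscle spots. In muscle spots with only muscle neighbors it was at 24617 CPM against 46169 and 50278. On that scale the falls over all muscle spots were smaller than with TMM. There *Mybpc1* was at 2283 against 4332 and 4216 CPM, and *Mybpc2* at 435.6 against 880.6 and 1072.5.

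*Acta2* at E18.5 fell to 105.0 in the CaV1.1 KO, 3.05-fold below controls of 319.4 and 319.8 (log2 -1.61 ± 0.22, adjusted p = 0.0035), and below every E14.5 section as well. *Actg2* was at 2.7 from 47 UMIs against 9.4 and 7.2, a log2 difference of -1.60 ± 0.50 that missed the threshold (adjusted p = 0.053) but passed it under DESeq2 (0.0058), without a filter on low counts (0.019), and without E14.5 section 1 (0.027), E14.5 section 3 (0.022) or E18.5 section 2 (0.0495). *Mybph* at 526.3 was above both controls by log2 0.25 (adjusted p = 0.36). The size of this depends on the scaling, since in CPM without TMM *Mybph* was at 556.7 against 345.1 and 302.3. In all, 4 of 6 members were called, all lower, where 25.5% of genes were called, 1548 higher and 2238 lower. Beside the fall of *Acta2*, 4 of 8 smooth muscle markers fell in these spots, among them calponin *Cnn1* (-2.32 ± 0.51), *Synpo2* (-0.91 ± 0.18) and *Smtn* (-0.71 ± 0.16), and the kinase *Mylk* rose (0.79 ± 0.18). *Cnn1* had 7 UMIs there. In CPM without TMM *Acta2* was at 111.0 against 231.9 and 234.3 in controls. On the same scale *Myh11* was at 7.2 against 6.9 and 6.5, and *Tagln* at 70.9 against 66.7 and 71.1. The summed smooth muscle markers were at 722 CPM against 801 and 802 in controls, of which *Smtn* alone was 332 against 395 and 357. Of the 5 pericyte markers *Cspg4* (-1.52 ± 0.15) and *Rgs5* (-1.16 ± 0.21) fell too. Values of *Pdgfrb*, *Notch3* and *Kcnj8* are not given here, so this is no statement on the list as a whole. The part of smooth muscle and pericytes in the *Acta2* value was not tested.

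The muscle score genes fell with them in this section, 8 of 8 called lower with a median log2 change of -1.23. Scaled to the sum of those genes, which moved the median of all genes by log2 1.25 and the calls to 11752 higher and 120 lower, *Acta1* stayed lower, whereas *Mybpc2* (-0.45, adjusted p = 0.077), *Mybpc1* (-0.19, 0.37) and *Acta2* (-0.35, 0.13) were no longer called and *Mybph* was called higher by 1.5. Per UMI of those 8 genes, *Acta1* was thus lower and *Mybph* higher in the CaV1.1 KO.

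The knockout effect on *Acta2* differed between stages: it was -0.16 at E14.5 and -1.61 at E18.5, a log2 difference of -1.45 ± 0.29 (adjusted p = 0.035). It was the 1 member called, where 6.33% of genes were, and the call was lost without E14.5 section 2 (adjusted p = 0.060), E14.5 section 3 (0.10) or E18.5 section 1 (0.051), and with muscle gene scaling (-0.70, 0.066). For *Acta1* and *Mybpc1* the same differences were -0.79 and -0.56 and did not pass the test, except without E14.5 section 1 (-0.95 and -0.73, adjusted p = 0.018 and 0.033).

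Among the partners in the CaV1.1 KO, 3 of 15 thin filament genes fell at E14.5, *Lmod2* (-2.49 ± 0.26), *Nrap* (-2.35 ± 0.28) and *Tmod4* (-1.80 ± 0.22), where 2.1% of all genes were called. At E18.5, where 25.5% of all genes were called, 12 of 15 fell, among them *Nrap* (-2.11 ± 0.27), *Lmod2* (-1.97 ± 0.25), *Tpm1* (-1.54 ± 0.21) and *Tpm2* (-1.35 ± 0.25). Of the thick filament and M-band genes none was called at E14.5 and 5 of 11 fell at E18.5, among them *Myom1* (-1.44 ± 0.16) and the giant spring protein *Ttn* (-0.79 ± 0.22). Of the 8 SRF and MRTF genes, 4 fell at E18.5: *Srf* by 1.61 on the log2 scale (SE 0.16), *Abra* by 1.11 (SE 0.23), *Tead1* by 0.56 (SE 0.12) and *Mrtfa* by 0.49 (SE 0.10).

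In the β-cat cKO, Wnt/β-catenin signaling and β-catenin at the membrane are the targets, and the comparison again used E18.5 controls, the same 2 sections as for the CaV1.1 KO. Here *Acta1* and both C proteins were at most 1.65-fold below control and the visceral smooth muscle isoform rose. *Actg2* in muscle spots was at 49.9 from 2036 UMIs against 9.4 and 7.2, 6.0-fold higher (log2 2.58 ± 0.39, adjusted p = 0.010), and was the only member called, where 8.82% of genes were. In muscle spots with only muscle neighbors it was higher by 1.93 and missed the threshold (adjusted p = 0.082). *Acta2* at 508.8 was above both controls (log2 0.67 ± 0.20, adjusted p = 0.082). *Mybpc1* at 3544.0, *Acta1* at 43581.3 and *Mybpc2* at 975.4 were below both controls, with log2 differences of -0.73 (adjusted p = 0.095), -0.56 (0.18) and -0.46 (0.11), and *Mybph* at 539.6 was above them by 0.28 (0.39). Without E14.5 section 1, 4 of 6 members passed the test, *Acta1* and *Mybpc1* lower and *Acta2* and *Actg2* higher, and DESeq2 called 5. The shares of all genes called in either way are not given here. Of the partners only *Tpm1* (-0.85 ± 0.20) among the thin filament genes, *Myom1* (-0.71 ± 0.16) and *Myom3* (-0.67 ± 0.16) among the thick filament and M-band genes, and *Tead1* (-0.63 ± 0.12) among the SRF and MRTF genes were called, all lower.

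**Figure D2:**
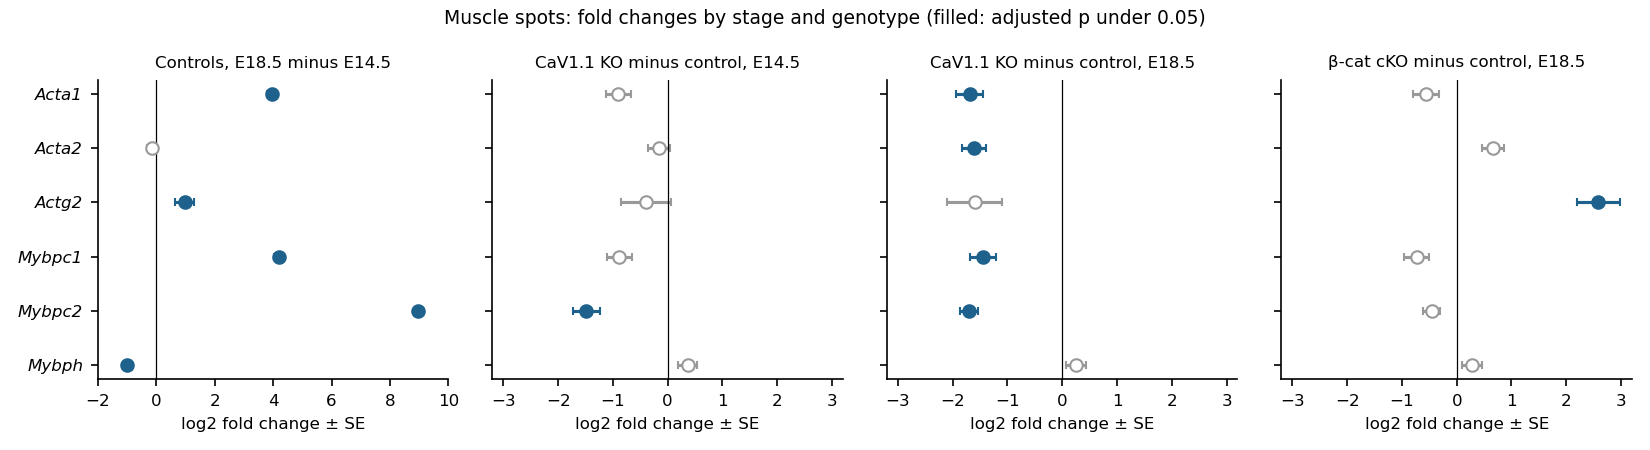
Log2 fold change of each member in muscle spots with its standard error, for the stage comparison and the 3 mutant sections (the first panel has its own axis range). Filled symbols passed adjusted p under 0.05: 5 members by stage, *Mybpc2* in the CaV1.1 KO at E14.5, 4 members in the CaV1.1 KO at E18.5 and *Actg2* in the β-cat cKO.

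Where the members were read out was asked by comparing muscle spots with all other kept spots of the same control section. The levels of this comparison come from 1 fit of both kinds of spot, whose TMM scale differs from that of muscle alone. *Acta1*, *Mybpc1* and *Mybph* were higher in muscle at both stages. *Acta1* was at 5526.9, 4165.3 and 4199.2 in muscle and at 1435.3, 941.9 and 922.5 in other spots at E14.5. At E18.5 it was at 69906 and 76688.3 in muscle and at 16456.9 and 10173.3 in other spots. The excess in muscle was log2 2.09 ± 0.18 and 2.5 ± 0.23 (adjusted p = 0.00034 and 0.00014). For *Mybph* the excess was 1.94 ± 0.12 and 2.38 ± 0.15, and for *Mybpc1* 2.07 ± 0.15 and 2.38 ± 0.18. *Mybpc2* was higher in muscle by 2.57 ± 0.20 at E18.5 (adjusted p = 8.0e-05), but at its few E14.5 UMIs the difference of 0.79 ± 0.36 was not called (adjusted p = 0.12), although it was when either E18.5 section was left out of the shared fit (0.0074 and 0.0070).

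*Acta2* was higher in muscle than in other spots at E14.5 (log2 1.07 ± 0.12, adjusted p = 0.00070), whereas at E18.5 the difference was 0.36 ± 0.14 and missed the threshold (adjusted p = 0.059), which it passed without E18.5 section 2 (0.57, adjusted p = 0.017). At E18.5 *Acta2* was at 359.8 and 368.6 in muscle and at 240.3 and 336.2 in other spots. Its direction there depends on the scaling, since in CPM without TMM it was lower in muscle in both sections, at 231.9 and 234.3 against 239.7 and 355.0. *Actg2* had the opposite arrangement to *Acta1*. At E14.5 it was at 2.9, 4.3 and 7.4 in muscle and at 9.0, 32.5 and 4.3 in other spots, and at E18.5 at 10.6 and 8.3 in muscle and at 50.4 and 65.6 in other spots. It was above muscle in the other spots of 4 of 5 sections, with log2 differences of -1.84 ± 0.52 (adjusted p = 0.030) and -2.61 ± 0.52 (0.0046). E14.5 section 3 was the exception, with 7 UMIs in all its other spots, and the E14.5 call was lost without section 1 (adjusted p = 0.072) or section 2 (-0.90, 0.25). At each stage 5 of 6 members were called, 4 higher in muscle and *Actg2* lower, where 40.6% of genes were called at E14.5 and 57.9% at E18.5. In a fit of the other spots alone the members followed the stage as in muscle, with *Acta1* (log2 3.63), *Mybpc1* (3.99) and *Mybpc2* (7.28) higher and *Mybph* (-1.33) lower at E18.5, 4 of 6 called where 30.6% of genes were. The call of *Mybph* there was lost without E14.5 section 3 (adjusted p = 0.055) or E18.5 section 2 (0.068), and that of *Actg2* was gained without E14.5 section 2 (0.013).

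Distance from the edge of the muscle was also used, in CPM. In E14.5 sections *Acta1* went from 554 to 962 CPM in spots more than 200 µm outside muscle to 1406 to 2303 in the spots 100 µm outside, 3283 to 4917 in the outermost muscle spots and 4829 to 6292 in muscle more than 300 µm from its edge. At E18.5 the same bins held 6723 and 15632, 13071 and 17303, 32447 and 36010, and 46953 and 51349. Spots far from muscle thus still held striated actin. *Mybph* was higher inward in the same way at both stages and *Mybpc2* at E18.5, from 610.0 and 635.5 in the outermost muscle spots to 966 and 1162 in the innermost.

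*Acta2* was flat across E18.5 muscle, at 220.2 and 219.2 in the outermost and 231.8 and 236.8 in the innermost bin. *Actg2* went from 12.2 and 22.3 to 6.6 and 3.1 between the same bins, after 37.8 and 54.4 just outside. The E14.5 bin farthest outside muscle in section 3 held 13 spots.

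**Figure D3:**
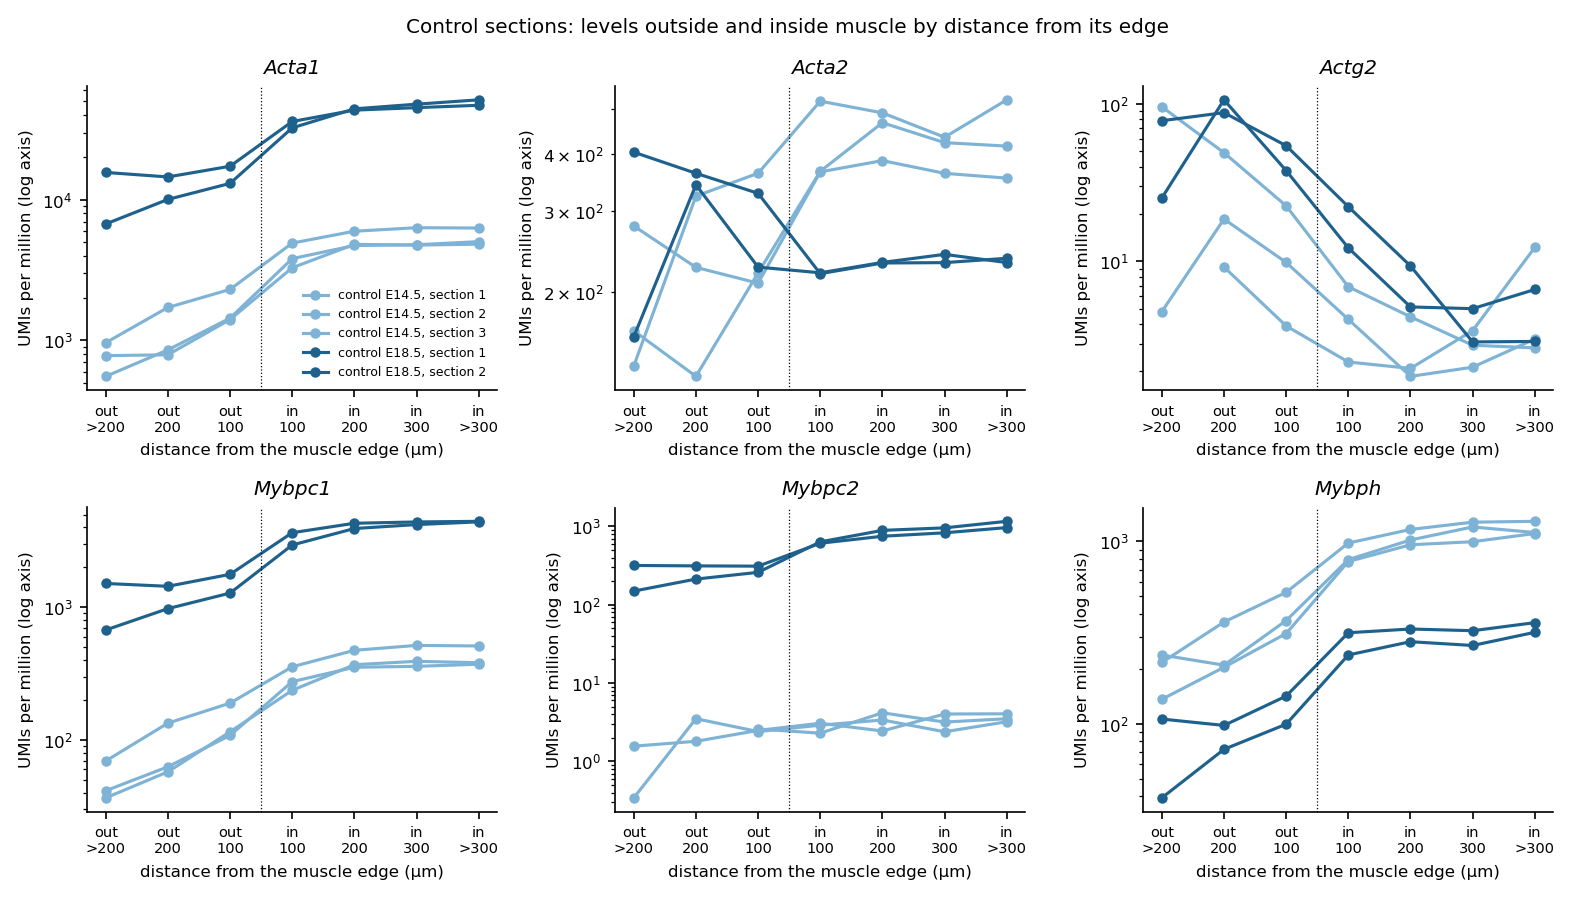
CPM (log axis) of each member in the 5 control sections by distance from the muscle edge, outside muscle to the left of the dotted line and inside to the right. Bins with no UMI of a gene are left out. *Acta1*, *Mybpc1* and *Mybph* are higher inside muscle at both stages and *Mybpc2* at E18.5, *Acta2* is flat inside E18.5 muscle, and *Actg2* is higher outside than inside in each section but E14.5 section 3.

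At E18.5 *Actg2* UMIs lay in few spots. The 1% of kept spots with most *Actg2* held 40.3% and 36.8% of its UMIs in E18.5 controls 1 and 2, from 870 and 801 UMIs, and the same share was 6.14% and 7.43% for *Acta2* and 2.54% and 2.58% for *Acta1*. Few UMIs by themselves raise this share. In E14.5 controls it was 23.0% to 25.9% for *Actg2*, from 113 to 521 UMIs, and 16.4% to 19.6% for *Mybpc2*, from 46 to 116 UMIs. For *Acta2* against *Acta1* it was 7.61% against 8.52%, 3.60% against 3.54% and 3.76% against 2.87% in E14.5 sections 1, 2 and 3. Of these *Actg2* spots, 22 of 25 and 21 of 35 lay outside muscle in E18.5 controls 2 and 1, and 7 of 8, 8 of 8 and 0 of 7 in E14.5 controls 1, 2 and 3. In the β-cat cKO all 22 such spots lay outside muscle, and they held 30.2% of *Actg2* UMIs (exact 95% interval 29.5% to 31.0%, for counting error only). Muscle spots there held 13.8% (13.2% to 14.4%) of its UMIs, against 59.4% and 41.7% in E18.5 controls. Of all UMIs they held 78.9% in the β-cat cKO and 91.5% and 90.3% in those controls. The *Actg2* share was 28.7% and 19.3% in the CaV1.1 KO at E18.5 and E14.5, and 36.5%, 25.9% and 93.8% in E14.5 controls 1, 2 and 3. The 22 spots with most *Acta2* in the β-cat cKO also all lay outside muscle.

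In other spots of the β-cat cKO *Actg2* was at 1005.5 from 12734 UMIs against 59.2 and 75.7 (log2 3.90, adjusted p = 0.11), and *Acta2* at 996.6 against 281.9 and 387.7 (log2 1.57, adjusted p = 0.085). Neither passed the test, in a comparison where 1.28% of genes were called, but *Actg2* did without E14.5 section 2 (adjusted p = 0.018) and *Acta2* without E14.5 section 1 (0.046). None of the 6 members was called there by edgeR, while 5 had an unadjusted p under 0.05 and DESeq2 called 4. The 1.28% does not apply to those counts, and the shares of all genes that would are not given here. Of the smooth muscle markers, *Mylk* (3.11 ± 0.31) and smooth muscle myosin *Myh11* (2.70 ± 0.42) were called higher in these spots. The summed level of the 8 markers in other spots was 2475 CPM in the β-cat cKO, 673 and 908 in E18.5 controls and 661 in the CaV1.1 KO. In muscle spots it was 879 in the β-cat cKO, with *Cnn1* (2.28 ± 0.32) and the calcium pump inhibitor *Pln* (4.54 ± 0.98) called higher. *Pln* was at 0 in the other spots of E18.5 control 1 and in the muscle spots of control 2. *Myocd*, the smooth muscle co-activator of serum response factor, was higher in other spots of the β-cat cKO by 2.77 ± 0.39 (adjusted p = 0.037). Mesothelium markers were also highest in other spots of that section, at 813 against 165 and 426. How much of these differences lies in which tissue the section included was not tested.

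In the CaV1.1 KO, other spots gave no called member at either stage, where 0% of genes were called at E14.5 and 0.108% at E18.5. The unadjusted p was under 0.05 for 2 and 5 of 6 members, and DESeq2 called 2 and 4. Shares of all genes by unadjusted p or by DESeq2 are not given here, so these counts have no background to be read against. At E18.5 *Acta1* was at 5318.2, *Mybpc1* at 598.7, *Mybpc2* at 96.8 and *Acta2* at 164.6, each below both controls, and *Mybph* at 241.5 was above controls of 148.3 and 84.9.

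**Figure D4:**
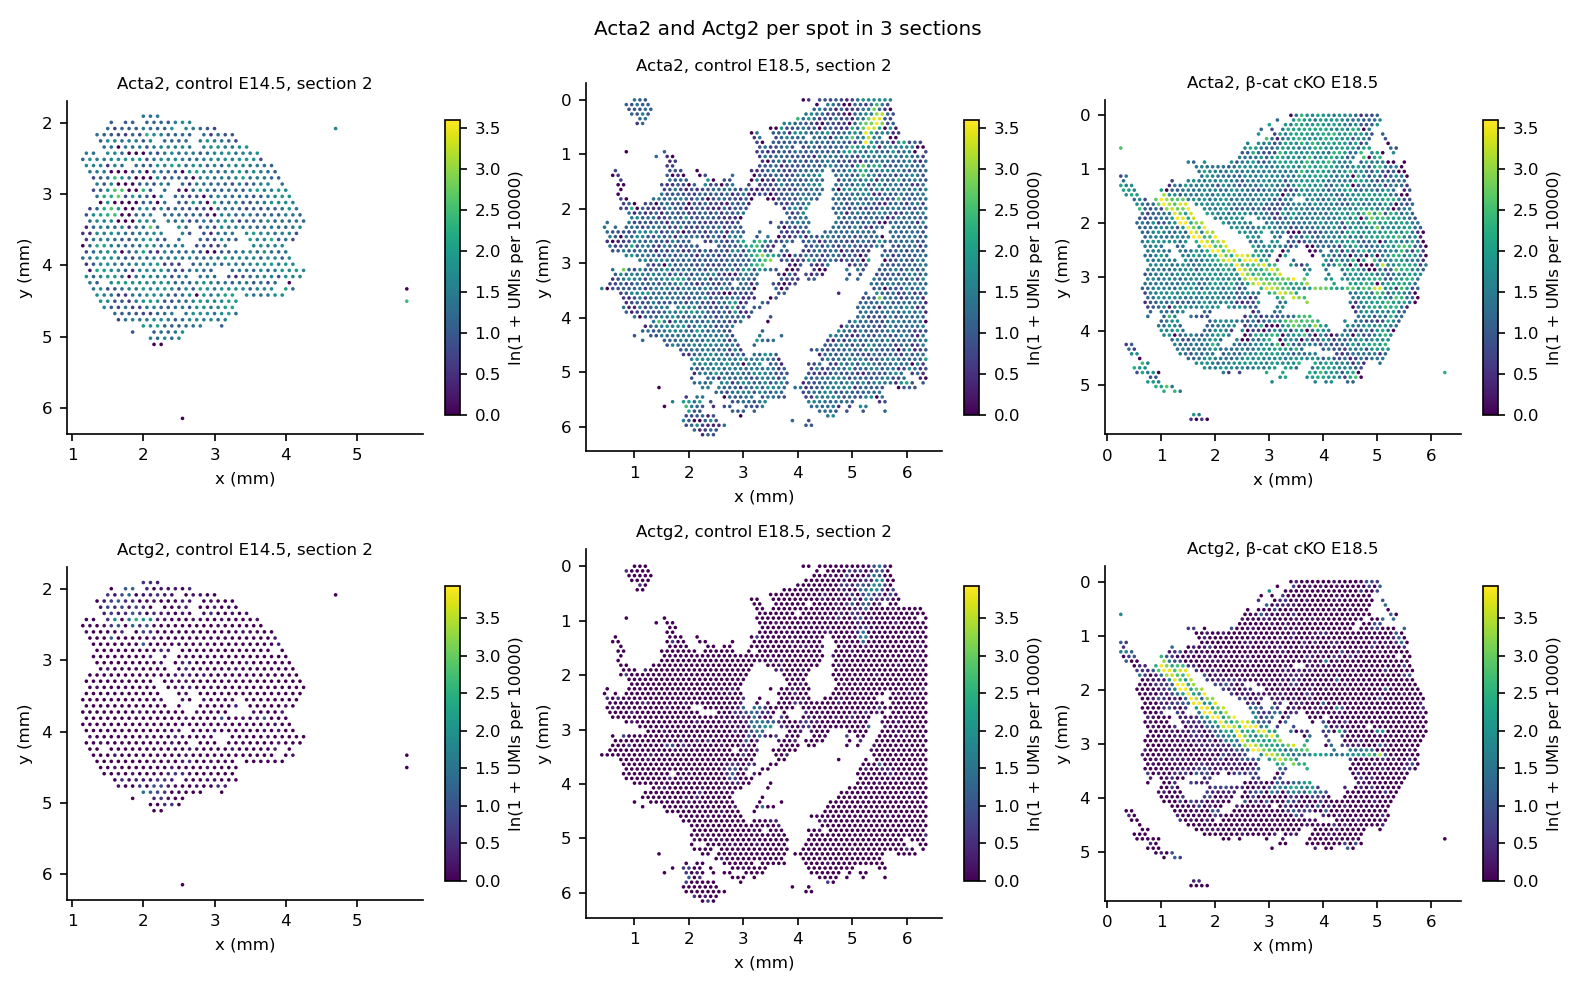
Natural log of 1 plus UMIs per 10000 of *Acta2* (top) and *Actg2* (bottom) in each kept spot of 3 sections, with position in mm; values above the top of a color scale share its last color. In the β-cat cKO both genes are high in a narrow band, and the 22 spots with most *Actg2* all lie outside muscle, whereas control *Actg2* is near 0 over most of the muscle.

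The genes most like each member over all kept spots were found by Pearson correlation of log-normalized values, averaged over the control sections of a stage among 11875 genes at E14.5 and 11611 at E18.5. Only genes with a mean of at least 0.05 UMIs per spot in every control section of the stage were compared. The correlations are descriptions, and spots of a section share its library and its depth differences. *Acta1* was closest to the fast regulatory light chain *Mylpf* at both stages (mean r 0.914 over 3 sections and 0.979 over 2). *Mybpc1* was closest to *Mylpf* as well, at 0.704 and 0.928, and *Mybph* went from *Mylpf* at 0.782 to the perinatal myosin *Myh8* at 0.592. *Mybpc2* had no gene above 0.132 at E14.5 and was closest to *Myh8* (0.831), *Tnnt3* (0.829) and *Ckm* (0.819) at E18.5.

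The genes named for *Acta2* differed between stages, in part because the genes compared differed. At E14.5 it was closest to the striated light chains *Myl4* (0.465), *Mylpf* (0.461) and *Myl1* (0.458), and at E18.5 to *Myh11* (0.347), *Tagln* (0.318) and the endothelial gene *Vwf* (0.303). *Actg2* had *Pappa* (0.288) at E14.5, with a range of 0.105 to 0.518 over sections, and *Vwf* (0.599), *Tagln* (0.579) and *Myh11* (0.565) at E18.5. *Myh11* was below the minimum at E14.5 and could not be named there for either gene. In E14.5 controls 1, 2 and 3 it had 13, 20 and 29 UMIs in muscle spots and 14, 21 and 0 in other spots.

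Regions along the fiber were compared within control muscle, with the section as a block. Muscle spots were ranked by 8 synaptic genes such as *Chrna1* and *Musk*, and the top 15% make up the center, at the endplate band. The periphery is the top 15% for *Col22a1*, *Rxrg*, *Uchl1* and *Ankrd1*, genes of the myotendinous junction, and all other muscle spots are intermediate. At E14.5 *Acta1*, *Mybpc1* and *Mybph* were slightly higher in the center. *Mybph* was at 1139.5, 1011.8 and 1080.6 in the center and at 947.7, 728.8 and 866.5 in intermediate muscle, higher in each section (log2 0.35 ± 0.04, adjusted p = 4.5e-07). *Mybpc1* (0.28 ± 0.06) and *Acta1* (0.22 ± 0.05) were higher too, while *Actg2* (-1.56 ± 0.36) and *Acta2* (-0.14 ± 0.05, adjusted p = 0.048) were lower, 5 of 6 members where 15.3% of genes were called. The calls of *Actg2*, without section 3 (adjusted p = 0.062), and of *Acta2*, without E14.5 section 1 or 3 or either E18.5 section, were lost. *Mybpc2* was not called (-0.36 ± 0.27).

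In the E14.5 periphery *Acta2* stood out among the members. It was at 580.3, 385.8 and 398.3 in the periphery and at 416.3, 291.7 and 339.8 in intermediate muscle (log2 0.38 ± 0.05, adjusted p = 3.1e-06), the 1 member called where 7.18% of genes were. Defined by distance instead, outer against inner muscle gave *Acta2* at -0.06 (adjusted p = 0.63).

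At E18.5 the order turned. In the center *Mybpc2* (-0.45 ± 0.04), *Acta1* (-0.31 ± 0.06), *Mybph* (-0.27 ± 0.05) and *Mybpc1* (-0.18 ± 0.06) were below intermediate muscle, 4 of 6 where 12.9% of genes were called. In the periphery *Mybpc2* was at 845.0 and 1008.7 against 1360.8 and 1622.4 (-0.69 ± 0.04, adjusted p = 2.0e-12), and *Acta1* at 48926.2 and 49589.7 against 67415.9 and 71807.6 (-0.50 ± 0.07). *Acta2* (-0.46 ± 0.05), *Mybpc1* (-0.42 ± 0.06) and *Mybph* (-0.23 ± 0.05) were lower as well, although in CPM without TMM *Mybph* was lower in section 1 only, and *Actg2* was not called, 5 of 6 where 33.8% of genes were called. Without E18.5 section 1 only *Mybpc2* kept its call in the center, and *Mybph* lost its call in the periphery (adjusted p = 0.0725). The center call of *Mybpc1* was also lost without E14.5 section 1 (0.154), E14.5 section 3 (0.096) or E18.5 section 2 (0.143).

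Tested directly, 5 of 6 members had a center effect that differed between stages, where 14.3% of genes did, and 3 of 6 a periphery effect that did, where 12.1% of genes did. In the periphery as defined by its genes, the largest such difference was that of *Acta2*, at -0.84 ± 0.07 (adjusted p = 5.5e-09), from higher at E14.5 to lower at E18.5. By distance the E14.5 difference of *Acta2* was not called. In the center the difference between stages was -0.62 ± 0.07 for *Mybph* and 1.30 ± 0.44 for the scarce *Actg2*, whose call was lost without E14.5 section 1 or 3 or either E18.5 section.

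The muscle score genes moved with the regions. They were called higher in the center at E14.5 (8 of 8, median log2 0.32) and lower at E18.5 in the center (6 of 8, -0.25) and periphery (7 of 8, -0.39). Scaled to them, *Acta1* changed from 0.22 to -0.07 in the E14.5 center and *Mybpc1* from 0.28 to -0.01, and at E18.5 only *Acta2* was called in the center, now higher by 0.35, while in the periphery *Mybpc2* stayed lower, *Actg2* was higher by 0.76 and *Mybph* turned to 0.22. The part of muscle content in the regional values was not tested further. Thin filament partners showed the same turn: 7 of 15 were called higher in the center at E14.5 and 13 of 15 lower at E18.5. Over all genes 15.3% and 12.9% were called there in either direction. In E18.5 controls the immature fiber genes *Myh3*, *Tnnt2*, *Myl4*, *Myog* and *Chrng* (*Chrng* also ranks the center) were at 9363 and 8519 CPM in the center. They were at 8922 and 7608 in the periphery and 6531 and 5806 in intermediate muscle. The fast genes *Myh4*, *Pvalb*, *Actn3* and *Atp2a1* were at 9722 and 11311, 9239 and 9841, and 12180 and 13630.5. The part of fiber makeup in the regional values was not tested.

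In the mutants, regions give values only. The CaV1.1 KO at E14.5 had *Acta1* at 3880 CPM in the periphery and 2362 in intermediate muscle, a log2 difference of 0.72. At E18.5 its *Mybph* was at 907 in the periphery against 493 (log2 0.88), while in controls it was at 338.0 and 315.2 against 352.4 and 304.7 (log2 -0.06 and 0.05). The β-cat cKO had *Mybpc2* at 480 in the periphery against 915 (log2 -0.93).

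Slow and fast C protein were compared with fiber type by splitting muscle spots on the mean z-score of 6 slow genes (*Myh7*, *Myl2*, *Myl3*, *Tnnc1*, *Tnnt1* and *Tnni1*) minus that of 4 fast genes (*Myh4*, *Pvalb*, *Actn3* and *Atp2a1*). The top 25% of muscle spots are called slow-rich and the bottom 25% fast-rich. Slow-rich spots of E18.5 controls also held more of the immature fiber genes *Myh3*, *Tnnt2*, *Myl4*, *Myog* and *Chrng*, at 10114 and 8436 against 5277 and 5082 CPM. The center genes were at 1337 and 1287 against 838 and 917, and the periphery genes at 364 and 394 against 171 and 199. Fiber type, immaturity and position thus cannot be told apart in this split. The paper lists *Mybpc2* beside these 4 fast genes as a top marker of its type IIb cluster, found in these same E18.5 control sections. *Mybpc2* was left out of the score, but its E18.5 difference is for that reason no independent result. At E18.5 the fast isoform showed the widest difference: *Mybpc2* was at 817.0 and 984.9 in slow-rich and at 1657.8 and 1962.9 in fast-rich spots (log2 -1.01 ± 0.04, adjusted p = 1.4e-15). *Mybph* followed, at 370.4 and 299.5 against 619.5 and 547.6 (-0.80 ± 0.05, adjusted p = 3.3e-12). *Acta1* (-0.41 ± 0.06) and *Mybpc1* (-0.22 ± 0.06) were also lower in slow-rich spots, as was the scarce *Actg2* (-0.55 ± 0.19, adjusted p = 0.038), whose sign turned without E18.5 section 1 (0.06). Thus 5 of 6 members were called lower where 21.7% of genes were called, among them the isoform named slow. For *Mybpc1* this depends on the scaling. In CPM without TMM it was at 4271 and 4151 in slow-rich against 4425 and 4276 in fast-rich spots (log2 -0.05 and -0.04). UMIs of *Mybpc2* per UMI of *Mybpc1* were 0.147 and 0.187 in slow-rich against 0.257 and 0.319 in fast-rich spots, 0.145 against 0.228 in the CaV1.1 KO and 0.15 against 0.357 in the β-cat cKO. In the muscle spots of the β-cat cKO the slow genes *Myl3* (-5.95 ± 0.36), *Myl2* (-4.72 ± 0.24) and *Myh7* (-3.61 ± 0.25) were lower than in controls, so that slow-rich there is a rank within the section. The call of *Mybpc1* was lost without either E18.5 section (adjusted p = 0.11 and 0.14).

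At E14.5 the sign was the opposite. *Mybpc1* (0.41 ± 0.06), *Acta1* (0.39 ± 0.05), *Acta2* (0.32 ± 0.04) and *Mybph* (0.15 ± 0.04, adjusted p = 0.033) were higher in slow-rich spots, 4 of 6 members where 5.16% of genes were called, and *Mybpc2* and *Actg2* were not called. The change of effect between stages passed the test for 5 of 6 members, all but *Actg2*, where 12% of genes did, and was widest for *Mybpc2* (-1.35 ± 0.27, adjusted p = 0.0010) and *Mybph* (-0.95 ± 0.06). For *Mybpc2* this change contains its E18.5 difference and is likewise no independent result. Its E14.5 part was 0.34 ± 0.26, from 7, 26 and 13 UMIs in the slow-rich spots of sections 1, 2 and 3. Without E14.5 section 2 the E14.5 call of *Mybph* (0.10, adjusted p = 0.41) and the change between stages for *Mybpc2* (-1.11, adjusted p = 0.0975) were lost. The classes are not alike between stages. The fast genes were at 1336, 1003 and 1142 CPM in slow-rich against 1619, 1093 and 1313 in fast-rich spots at E14.5. At E18.5 they were at 9337 and 10184.5 against 13522 and 15306. The immature fiber genes were higher in slow-rich spots of each E14.5 control too. The paper found separate type I and type IIb clusters only at E18.5.

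The muscle score genes again differed between the classes. They include the fast genes *Mylpf* and *Tnnt3*, so in this split muscle content and fiber type cannot be told apart by their sum. The summed muscle score genes were higher in slow-rich than in fast-rich spots in each E14.5 control, such as 24396 against 19979 CPM in section 1, and lower in each E18.5 control, at 77303 and 76215 against 90356 and 90493. Scaled to them, *Mybpc2* and *Mybph* stayed lower in slow-rich spots at E18.5, *Acta1* was at -0.003 and no longer called, and *Mybpc1* turned to 0.19 and *Acta2* to 0.36, both called higher. At E14.5 the same scaling left *Acta1* and *Mybpc1* uncalled at 0.05 and 0.07 and turned *Mybph* to -0.19 (adjusted p = 0.0029).

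**Figure D5:**
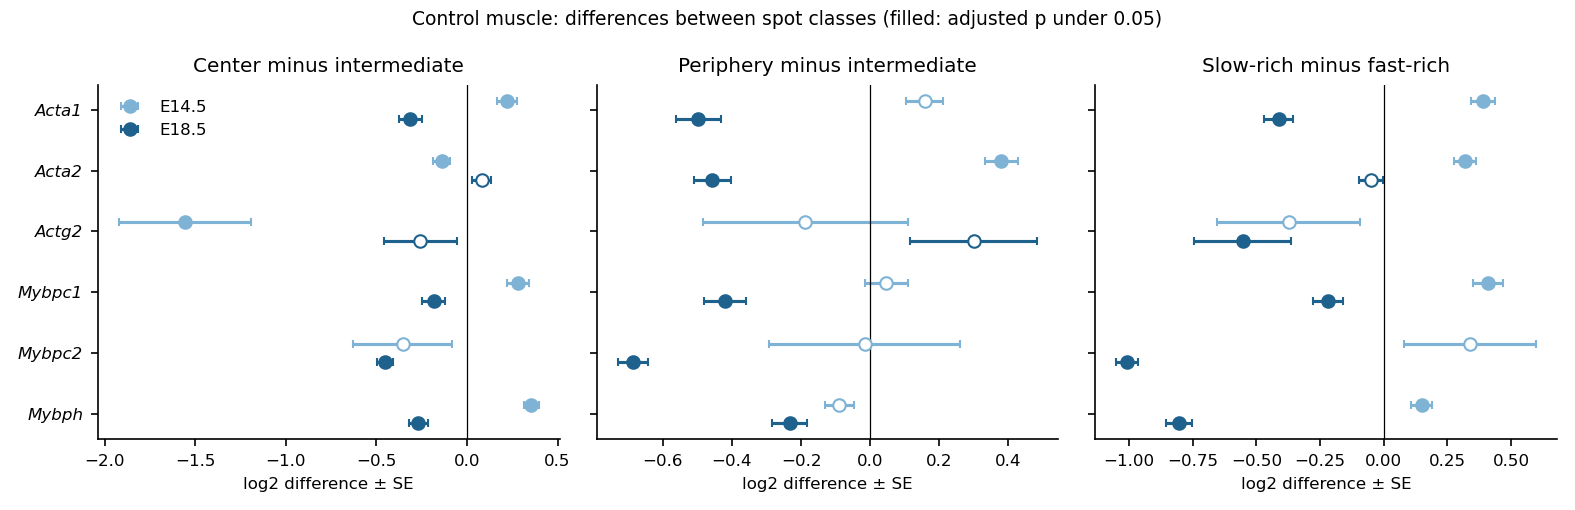
Log2 difference with its standard error between spot classes of control muscle for each member at E14.5 (light) and E18.5 (dark), each panel with its own axis range. Filled symbols passed adjusted p under 0.05. Most striated members lie right of 0 at E14.5 and left of it at E18.5, with *Mybpc2* at -1.01 in slow-rich against fast-rich spots at E18.5, and scaling to the muscle score genes turns or removes several of them.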

How the data were processed

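Spatial RNA counts were read from 8 Visium FFPE sections. The authors deposited raw UMI counts per gene and spot, made with Space Ranger 2.0.0 or 2.0.1 on mm10 with a mouse probe set (versions per the file headers and the submitters' processing notes). Sections were mapped to groups by their labels. Here, spots under tissue with at least 1000 UMIs were kept and their log-normalized values (scale 10000) were scored, and raw counts were summed per section and spot class. Sums were tested with edgeR 4.0.16 (R 4.3.3) by the quasi-likelihood method with filterByExpr, TMM and Benjamini-Hochberg adjustment over all genes tested (threshold 0.05), and the SE is the log2 fold change over the square root of F. Stage and genotype shared 1 fit of 5 groups with 3 residual degrees of freedom, and spot classes of control sections were compared with a term for each section. All members are named in every comparison, and other genes only from the listed partners and markers or as the 3 closest correlates. The members and lists were chosen with earlier results of these data known. Alternatives were DESeq2 1.42.0, its size factors, no filter, scaling to the 8 muscle score genes, other spot minimums and region definitions, and leaving out each control section. The fits were tested on simulated counts. A planned ratio with *Actc1* was not computed. UMI totals per section set counting error only, and exact binomial intervals cover no more than that.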

Additional observations from a re-analysis of the deposited data

Results flagged for a closer look

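Effects that differed between stages, tested as the difference itself, are collected here as log2 values (E18.5 minus E14.5, edgeR quasi-likelihood test). The CaV1.1 KO effect on *Acta2* in muscle spots differed by -1.45 ± 0.29 (adjusted p = 0.035). With 1 knockout section per stage it has no replicate check.

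The center effect differed by -0.62 for *Mybph* (adjusted p = 1.6e-07), -0.54 for *Acta1* (4.7e-05), -0.47 for *Mybpc1* (0.00029), 0.22 for *Acta2* (0.036) and 1.30 for *Actg2* (0.044). The periphery effect differed by -0.84 for *Acta2* (5.5e-09), -0.66 for *Acta1* (4.3e-06) and -0.47 for *Mybpc1* (0.00046). Scaled to the muscle score genes, which moved the median of all genes by 0.55 in both, the center differences of *Acta1* and *Mybpc1* and the periphery difference of *Mybpc1* turned sign. With TMM the sign for *Acta2* turned between stages in both regions, although its E18.5 center value was not called, and in the center neither *Acta2* nor *Actg2* kept its call without each section in turn. The periphery here is defined by its genes. By distance *Acta2* was at 519.8, 364.9 and 365.9 CPM in outer and 478.5, 357.9 and 416.8 in inner E14.5 muscle, a difference that was not called. At E18.5 it was at 220.2 and 219.2 against 233.6 and 236.2.

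Between slow-rich and fast-rich spots the effect differed by -1.35 for *Mybpc2* (0.0010), -0.95 for *Mybph* (2.2e-10), -0.80 for *Acta1* (2.6e-08), -0.63 for *Mybpc1* (7.1e-06) and -0.37 for *Acta2* (0.00018). The value of *Mybpc2* is no independent result, since the paper lists it with the fast genes of the score as a marker of its type IIb cluster in these E18.5 sections. These classes differed less in the fast genes at E14.5 than at E18.5. The summed muscle score genes were higher in slow-rich spots at E14.5 and lower at E18.5. Scaled to them, which moved the median of all genes by 0.76, the difference turned sign for *Mybpc1* and was 0.39 for *Acta2*.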

How the results depend on the processing

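Of 1482 values of 120 member results under the alternatives, 1264 kept their direction and side of the threshold, 110 lost a call, 60 gained one and 48 turned sign, and apart from what the alternative itself changes the cause was not tested.

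Scaled to the muscle score genes, signs turned for *Actg2* by stage (-1.95), in the CaV1.1 KO at E14.5 for *Actg2* (0.037) and *Acta2* (0.35), in the β-cat cKO for *Mybpc2* (0.039), and in the stage difference of the KO effect for *Mybph* (0.64), *Mybpc2* (0.55) and *Mybpc1* (0.18). In the center they turned for *Acta1* (-0.068) and *Mybpc1* (-0.010) at E14.5, for *Actg2* (0.014) and *Mybpc1* (0.079) at E18.5, and between stages for *Mybpc2* (0.48), *Acta1* (0.019) and *Mybpc1* (0.089). In the periphery they turned for *Mybpc1* at E14.5 (-0.092), *Mybph* (0.22) and *Mybpc1* (0.032) at E18.5, and *Mybph* (0.44) and *Mybpc1* (0.12) between stages. Between slow-rich and fast-rich spots they turned for *Mybph* (-0.19), *Mybpc2* (-0.020) and *Acta2* (-0.027) at E14.5, *Mybpc1* (0.19) and *Acta2* (0.36) at E18.5, and *Actg2* (0.57), *Mybpc1* (0.12) and *Acta2* (0.39) between stages. Over all genes the scaling moved the median by 0.49 in the CaV1.1 KO at E14.5 and the β-cat cKO, 0.78 for the stage difference of the KO effect, -0.30 and -0.15 in the E14.5 center and periphery, 0.23 and 0.40 at E18.5, 0.55 for both between stages, and -0.36, 0.39 and 0.76 between fiber classes at E14.5, at E18.5 and between stages. Its calls were 3211 higher and 166 lower in the CaV1.1 KO at E14.5 (79 and 233 by TMM), 3390 and 236 in the β-cat cKO (474 and 834), 208 and 7707 in the E14.5 center (1235 and 841), 4284 and 51 in the E18.5 center (585 and 1160), 8587 and 246 in the E18.5 periphery (1534 and 3038), 252 and 1535 in the E14.5 periphery (572 and 401), 103 and 8849 between E14.5 fiber classes (442 and 266), 9261 and 148 between E18.5 fiber classes (1111 and 1868), and 3705 and 61 for the stage difference of the KO effect (330 and 609).

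Other turns were *Mybph* (0.044) and *Mybpc2* (0.16) for the stage difference of the KO effect in muscle spots with only muscle neighbors, the E14.5 periphery by distance for *Actg2* (0.38), *Acta1* (-0.49), *Mybpc1* (-0.60) and *Acta2* (-0.065), and *Mybpc2* there with a region share of 25% (0.069). With each section left out in turn, values that turned in at least 1 case ranged, in the CaV1.1 KO at E14.5, from -0.27 to 0.0010 for *Acta2* in muscle, from -0.29 to 0.034 for *Acta2* in other spots and from -0.14 to 1.44 for *Actg2* there (without sections 1 and 3 the last was -0.14 and -0.065). In the β-cat cKO *Mybph* in other spots ranged from -0.43 to 0.37. In the periphery the ranges were -0.35 to 0.16 for *Mybpc2* (0.11 and 0.16 without E14.5 sections 1 and 2) and -0.11 to 0.085 for *Mybpc1* at E14.5, and -0.13 to 0.80 for *Actg2* at E18.5. For the center between stages *Mybpc2* reached 0.023, and for slow-rich against fast-rich *Actg2* ranged from -1.01 to 0.060 at E18.5 and from -0.63 to 0.43 between stages (0.21 without E14.5 section 2).

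The members called in muscle went, in the CaV1.1 KO at E14.5, from 1 to 3 with DESeq2 or muscle scaling and 0 in muscle spots with only muscle neighbors. In the CaV1.1 KO at E18.5 they went from 4 to 2 with muscle scaling, in the β-cat cKO from 1 to 5 with DESeq2, 2 without a filter, 3 with muscle scaling and 0 with only muscle neighbors, and for the stage difference of the KO effect from 1 to 2 with DESeq2 and 0 with muscle scaling. In other spots DESeq2 called 2, 4 and 4 members in the CaV1.1 KO at both stages and the β-cat cKO, and no filter gave 1 in the last. Shares of all genes called by DESeq2 or without a filter are not given here, so these counts only show how calls depend on the method. Muscle scaling gave 3 and 1 in the center at E14.5 and E18.5, 2 and 3 in the periphery, 2 for the center between stages, and 2 between fiber classes at E14.5 and between stages. DESeq2 gave 3 for the center between stages, no filter gave 2 in the E14.5 periphery, and distance gave 3 there and 1 between stages. Without the section as a block 0 members were called in any region or fiber class comparison other than the E18.5 periphery (1) and the E18.5 fiber classes (2).

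With 1 control section left out in turn, member counts ranged from 4 to 5 by stage, 0 to 3 and 4 to 5 in the CaV1.1 KO at E14.5 and E18.5, 1 to 4 in the β-cat cKO and 0 to 3 for the stage difference of the KO effect. In other spots they ranged from 3 to 5 by stage and from 0 to 1 in the β-cat cKO, with 0 in the CaV1.1 KO. Muscle against other spots gave 4 to 6 and 5 to 6, the center 3 to 5, 1 to 4 and 3 to 5 (E14.5, E18.5, between stages), the periphery 1, 5 and 3, and fiber classes 3 to 4, 3 to 5 and 4 to 5. The log2 ratio of *Mybpc2* to *Mybpc1* ranged from 4.58 to 4.91.

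Sections with number 1 or 2 share only that number: deviations from group means correlated at -0.065 and -0.17 over 5885 genes. A fit with the replicate block called 0 members in the CaV1.1 KO at E14.5, in the β-cat cKO and for the stage difference of the KO effect, and *Actg2* turned to 0.017 in the CaV1.1 KO at E14.5.

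Limits are 1 section per mutant, few *Mybpc2* and *Actg2* UMIs at E14.5 (44 to 135 in a control's muscle), actin paralogs of similar sequence, and spots that hold several cells.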
